A study of Cicer arietinum with 12 samples.

Results

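ARF23 (LOC101505502) and ARF11 (LOC101509304) are genes of chickpea (Cicer arietinum) named as auxin response factors. They were taken by their gene identifiers, 2 of the 27234 genes in the count files and 2 of 22 with an auxin response factor symbol. Leaf RNA was sequenced from 2 genotypes, ICC8261, described in the labels as drought tolerant, and ICC283, described as drought sensitive. Plants were held at 80% of field capacity (well-watered) or at 20% (drought), in pots in a glasshouse at 23 to 28 degrees Celsius, with 3 libraries in each of the 4 groups. The labels give the stage as shoot apical meristem and the material as leaf, and the sources used here give no plant age. Both genes were chosen by measured values of these same libraries, with earlier results in view, but which values led to the choice is not given. Their differences between the genotypes are therefore given below as a description, with no test. Drought within each genotype was tested, but the choice may rest on those values too. The drought p-values of the 2 genes are therefore no independent support.

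Auxin response factors are transcription factors that bind short auxin response elements in promoters and so set which genes auxin switches on or off. When auxin is low, Aux/IAA proteins bind these factors and hold them inactive, and auxin leads F-box receptors to mark the Aux/IAA proteins for breakdown. In Arabidopsis some members of the family activate transcription and others repress it, and the family takes part in leaf shape, vein formation and cell expansion. The numbers in the chickpea symbols do not say which Arabidopsis factor is the nearest, so no role of a single Arabidopsis factor is carried over to ARF23 or ARF11.

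Reads assigned to genes numbered from 8910704 to 12192098 per library. The treatment of 4 libraries is not the same in the count files and in the authors' deposited tables, where the normalized columns hold the same reads. In the tables, the treatments of ICC283 well-watered library 3 and ICC283 drought library 3 are exchanged, as are those of ICC8261 well-watered library 1 and ICC8261 drought library 2. The sources do not differ in genotype for any of the 12 libraries. Drought was therefore compared in the 8 libraries of undisputed treatment, 2 per group, while the genotypes were also compared over all 12, 6 against 6. ICC283 well-watered libraries 1 and 2 stood apart from the others on the second principal component (76.4 and 58.7, next highest 20.8), which held 17% of the variance. Of the tissue markers chosen, none of 9 for leaf mesophyll and none of 6 for the shoot apical meristem could be matched by symbol, so the labelled tissue was not checked. The 1 flower marker matched, LFY, lay between 0 and 0.458 CPM (reads of the gene scaled to a common library size).

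ARF23 was low in every ICC283 library and many times higher in every ICC8261 library. In ICC283 it had 31, 15 and 20 counts in the libraries filed as well-watered and 20, 34 and 18 in those filed as drought. In ICC8261 it had 286 and 348 counts in the undisputed well-watered libraries 2 and 3, 343 and 429 in the undisputed drought libraries 1 and 3, and 456 and 239 in the libraries filed as well-watered 1 and drought 2. The groups of the genotypes do not overlap, whichever treatment the disputed libraries are given.

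With TMM scaling, the level of ARF23 was 2.29 ± 0.654 CPM in ICC283 and 30.8 ± 8.07 CPM in ICC8261 (SD, n = 6 each). The ratio of these means was 13.4, and the lowest ICC8261 library stood 6.81 times above the highest ICC283 library. The edgeR log2 fold change of ICC8261 over ICC283 was 3.74 ± 0.24 (SE) over all 12 libraries. It was 3.26 ± 0.27 in well-watered plants and 3.88 ± 0.27 under drought in the 8 undisputed libraries. In the comparison over 12 libraries, 1.77% of the 17617 genes tested had all 6 ICC8261 libraries above all 6 ICC283 libraries, and 29 genes (0.165%) had an absolute log2 fold change at least as large as that of ARF23. These shares place the gene among the others and are no test, since the same contrast may have chosen it.

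**Figure D1:**
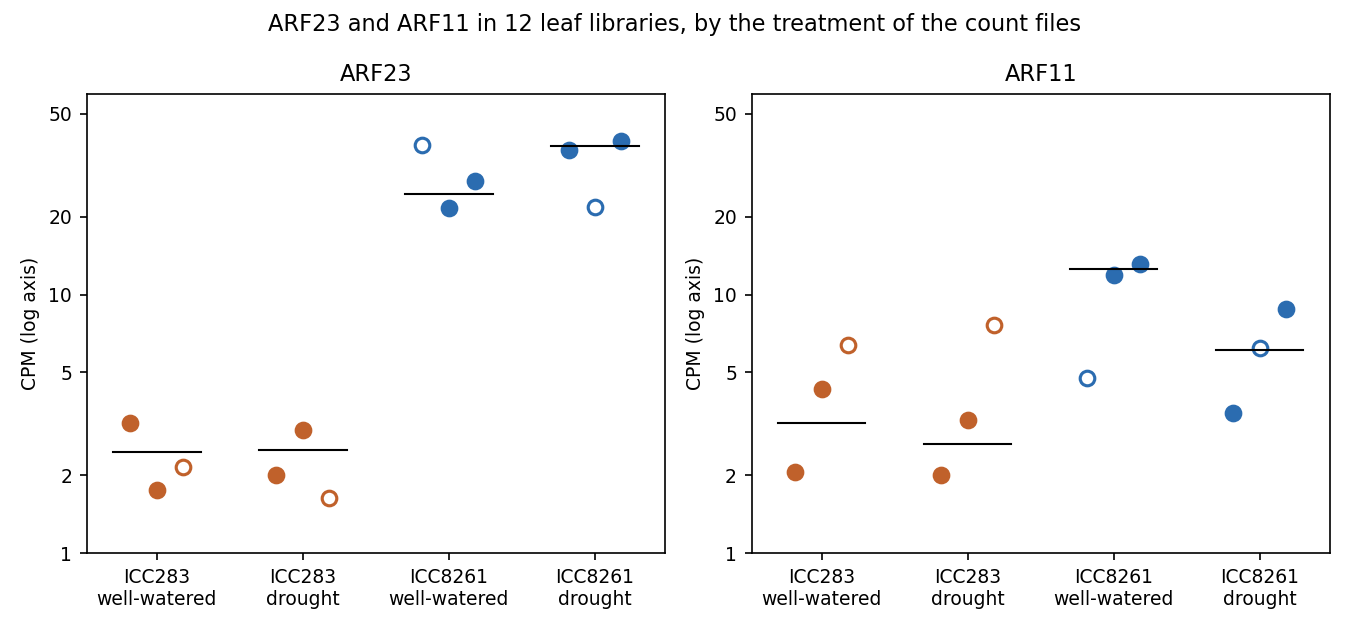
Level of ARF23 (left) and ARF11 (right) in each library, in CPM on a log axis, by the genotype and treatment of the count files. Filled points are the 8 libraries of undisputed treatment, open points the 4 whose treatment differs in the deposited tables, and bars the means of the filled points; ARF23 lies between 1.63 and 3.19 CPM in ICC283 and between 21.7 and 39.3 in ICC8261, while the ARF11 levels of the genotypes overlap.

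The difference was also visible without any scaling between libraries, as the part of the reads of all 22 auxin response factors that ARF23 took. That part lay between 0.339% and 0.65% in the 6 ICC283 libraries and between 4.23% and 8.04% in the 6 ICC8261 libraries. The remaining 21 factors together took between 0.0431% and 0.0594% of all assigned reads in ICC283 and between 0.0405% and 0.0588% in ICC8261, which are overlapping ranges. In bulk leaf tissue, more RNA per cell and more cells that express a gene cannot be told apart.

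Ordered by mean over the undisputed libraries, ARF23 stood at 2.47 ± 1.02 CPM in well-watered ICC283, 2.51 ± 0.707 in drought-stressed ICC283, 24.6 ± 4.13 in well-watered ICC8261 and 37.7 ± 2.16 in drought-stressed ICC8261 (SD, n = 2 each). The first 2 groups overlapped, and the other neighbours in this order did not. With 2 libraries per group a lack of overlap says little, here and below. Its share over all genes was not counted.

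Neither gene passed the test for drought in ICC283 (0 of 2, against 38.2% of 18750 genes called, with 0 of 2 at an unadjusted p under 0.05 and 0 of 2 by DESeq2). The undisputed libraries of ARF23 were at 3.19 and 1.75 CPM well-watered and at 2.01 and 3.01 CPM under drought, so the 2 treatments overlapped. The log2 fold change was 0.0056 ± 0.34 (edgeR adjusted p = 0.99), and its sign depended on single libraries, from 0.53 without well-watered library 1 to -0.35 without library 2. At 15 to 34 counts per library, a small change of ARF23 was not detectable in this genotype. The authors' deposited DESeq2 table for ICC283 gives 0.11 with a standard error of 0.45 and an adjusted p of 0.887.

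In ICC8261, too, neither gene passed in the undisputed libraries (0 of 2 by edgeR and by DESeq2, against 15.5% of genes called), and 1 of 2, ARF23, had an edgeR unadjusted p under 0.05. ARF23 stood at 21.7 and 27.5 CPM in the well-watered libraries and at 36.2 and 39.3 CPM in the drought-stressed libraries. These do not overlap, but they are 2 libraries against 2. The log2 fold change was 0.63 ± 0.21 (edgeR adjusted p = 0.072). The call depended on the libraries and on the treatment labels. It also changed without ICC283 well-watered library 1 or 2, which are in neither group compared here. Those fits tested 19288 and 19407 genes instead of 18750, so more than the estimate of the spread differed.

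The libraries of disputed treatment bear on this value directly. The library filed as well-watered 1 was at 38 CPM and the one filed as drought 2 at 21.9 CPM. With the tables' treatments, the levels were 21.7, 21.9 and 27.5 CPM well-watered against 36.2, 38 and 39.3 CPM under drought, and the edgeR log2 fold change over 12 libraries was 0.68 with an adjusted p of 0.027. With the treatments of the count files, the groups overlapped and the value was 0.16 (adjusted p = 1). The authors' deposited tables give 0.67 (adjusted p = 6.27e-04) by DESeq2 and 0.68 (adjusted p = 2.17e-04) by edgeR. On the first principal component of all genes, which held 53.2% of the variance, the ICC8261 library filed as well-watered 1 was at 34.1 and the undisputed drought libraries at 25.8 and -12.0, while the one filed as drought 2 was at -65.6 and the undisputed well-watered libraries at -72.2 and -63.8. In ICC283 the library filed as well-watered 3 was at 53.5, between the undisputed drought libraries (114.1 and 93.2) and well-watered libraries (-7.95 and -40.8), and the one filed as drought 3 was at -58.4. Each disputed library thus lay nearer to the undisputed libraries of the treatment the tables give it. No treatment was assigned from these values, so the drought value of ARF23 in ICC8261 is given under both sources. Its difference between the genotypes does not rest on that choice.

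**Figure D2:**
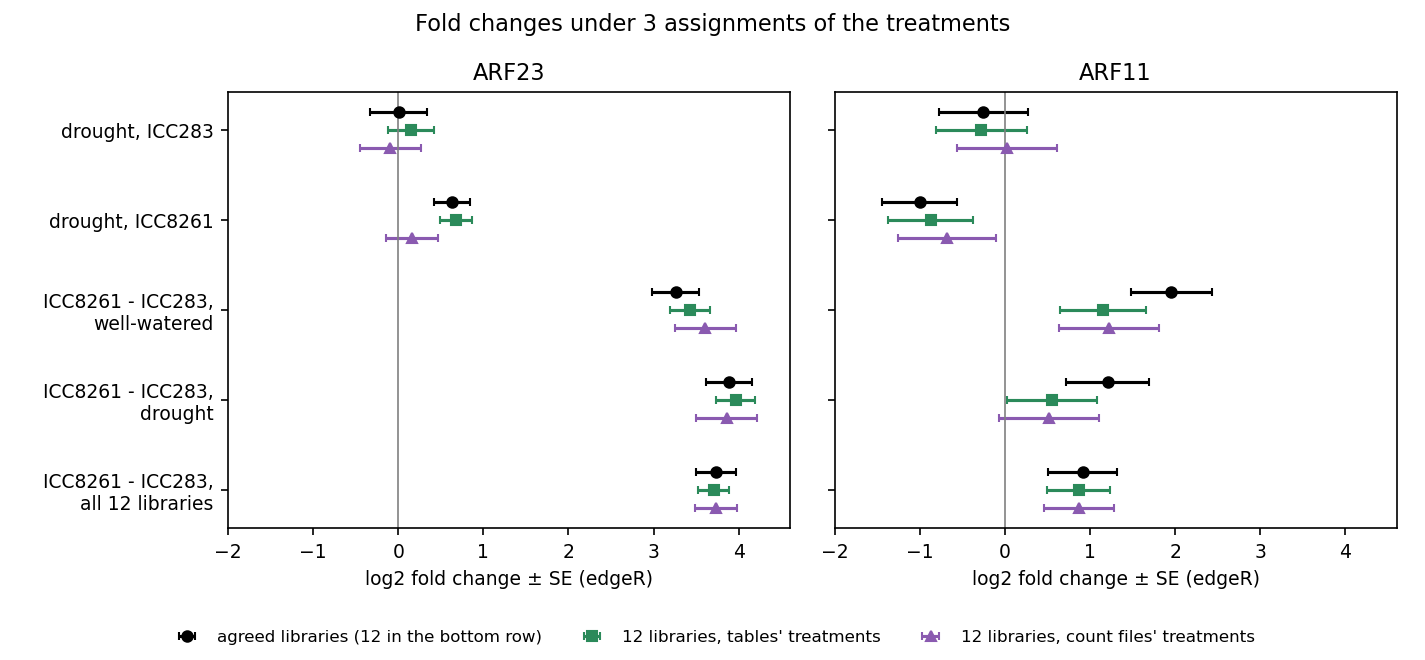
edgeR log2 fold changes ± SE of ARF23 (left) and ARF11 (right) for drought within each genotype and for ICC8261 over ICC283. Black circles use the 8 undisputed libraries (all 12 without a treatment term in the bottom row), green squares all 12 with the tables' treatments and purple triangles all 12 with the count files' treatments (in the bottom row as a treatment term); the genotype values of ARF23 stay between 3.26 and 3.96, while its drought value in ICC8261 goes from 0.63 and 0.68 to 0.16.

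ARF11 differed less between the genotypes than ARF23 and varied more among the libraries of each. In ICC283 it had 20, 37 and 59 counts in the libraries filed as well-watered and 20, 37 and 84 in those filed as drought, of which the last of each is disputed. In ICC8261 it had 157 and 166 counts in the undisputed well-watered libraries and 33 and 96 in the undisputed drought-stressed ones. The disputed ICC8261 libraries, filed as well-watered 1 and drought 2, had 57 and 68 counts. The highest 2 of the 12 libraries were the undisputed well-watered ICC8261 libraries, and the ranges of the genotypes overlapped.

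The level of ARF11 was 4.27 ± 2.31 CPM in ICC283 and 8.05 ± 3.91 CPM in ICC8261 (SD, n = 6 each), a ratio of 1.88, and 3 of 6 ICC8261 libraries lay above the highest ICC283 library. The log2 fold change of ICC8261 over ICC283 was 0.91 ± 0.40 over all 12 libraries. In the 8 undisputed libraries it was 1.95 ± 0.48 in well-watered plants and 1.21 ± 0.49 under drought. The well-watered value was 1.15 with the tables' treatments and 1.22 with those of the count files. It was 1.503 without ICC283 well-watered library 1 and 2.56 without library 2, the pair that stood apart. The undisputed well-watered libraries are numbered 1 and 2 in ICC283 and 2 and 3 in ICC8261. Under drought they are numbered 1 and 2 against 1 and 3. Both genotype values therefore also hold any difference between replicate numbers. With the replicate number as a term they were 1.42 ± 0.30 well-watered and 1.01 ± 0.33 under drought. The value under drought was 0.38 without ICC8261 drought library 3 and 1.71 without library 1, and it was 0.56 with the tables' treatments. By edgeR 26.6% of genes were called between the genotypes in well-watered plants (11.3% higher in ICC8261 and 15.3% lower), 18.9% under drought (10.9% and 8.04%) and 4.5% over all libraries (1.82% and 2.68%), and nothing is read from these shares for the 2 genes.

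Group means of ARF11 over the undisputed libraries were 2.64 ± 0.894 CPM in drought-stressed ICC283, 3.19 ± 1.60 in well-watered ICC283, 6.13 ± 3.75 in drought-stressed ICC8261 and 12.5 ± 0.867 in well-watered ICC8261 (SD, n = 2 each). The highest group did not overlap with the one below it, again with 2 libraries against 2. The lower 2 groups overlapped, and so did the 2 in the middle, where drought-stressed ICC8261 had libraries at 3.48 and 8.78 CPM against 2.06 and 4.32 CPM in well-watered ICC283.

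Drought gave no call for ARF11 in either genotype. In ICC283 the log2 fold change was -0.26 ± 0.52 (edgeR adjusted p = 0.73), and it was 0.36 without well-watered library 2. In ICC8261 the well-watered libraries were at 11.9 and 13.1 CPM and the drought-stressed at 3.48 and 8.78, with a log2 fold change of -1.0 ± 0.44 (edgeR adjusted p = 0.16). The drought-stressed libraries were both lower but far apart from each other. They are numbered 1 and 3, and the well-watered ones 2 and 3. In every group as filed, ARF11 was lowest in the library numbered 1 and highest in the one numbered 3. The drought value therefore also holds any difference between replicate numbers. With the replicate number as a term in the fit it was -0.66 ± 0.28. Without drought library 3 the value was -1.84 (adjusted p = 0.022), and without drought library 1 it was -0.49 (adjusted p = 0.52). With the tables' treatments it was -0.87 (adjusted p = 0.24). The authors' deposited tables give -0.77 for ICC8261 by DESeq2 (adjusted p = 0.0638) and -0.81 by edgeR (adjusted p = 0.0447), and -0.24 for ICC283 by DESeq2 (adjusted p = 0.768).

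The difference between the drought effects, ICC8261 minus ICC283, had a log2 value of 0.63 ± 0.40 for ARF23 and -0.75 ± 0.69 for ARF11. The signs are opposite, but each standard error is large against its value. The contrast is the difference between the genotype values above and is likewise a description; 12.6% of genes were called in it (7.88% higher and 4.68% lower). The genes also did not move together among the libraries of one genotype. Over the 6 libraries the Pearson correlation of their log2 CPM was -0.59 in ICC283 and -0.49 in ICC8261. Over all 12 it was 0.45, where the points share the step between the genotypes. Among 268 named genes ranked by likeness to ARF23, ARF11 was number 25.

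Of the 20 other auxin response factors, 18 passed the filter on low counts. ARF21 and CAARF8 did not, and their highest mean in a genotype was 0.168 CPM. None of the 18 differed as much between the genotypes as ARF23, and none as much as ARF11 over all libraries: their log2 fold changes of ICC8261 over ICC283 lay between -0.56 and 0.52, with a median of -0.051 beside a median of -0.0099 over all genes. By edgeR 0 of 18 were called over the 12 libraries, against 4.5% of all genes, with 1 of 18 at an unadjusted p under 0.05 and 1 called by DESeq2. Both are ARF22, the one other factor whose genotypes did not overlap. Its mean was 25.2 CPM in ICC283 and 35.3 CPM in ICC8261, a log2 fold change of 0.49 ± 0.14 (edgeR adjusted p = 0.061), and its lowest ICC8261 library was 1.08 times the highest ICC283 library. ARF22 was also called with upper-quartile scaling. With the tables' treatments as a term, edgeR called 2 of 18, ARF22 and ARF4, with 7 of 18 at an unadjusted p under 0.05. More of all genes were called in that fit as well.

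**Figure D3:**
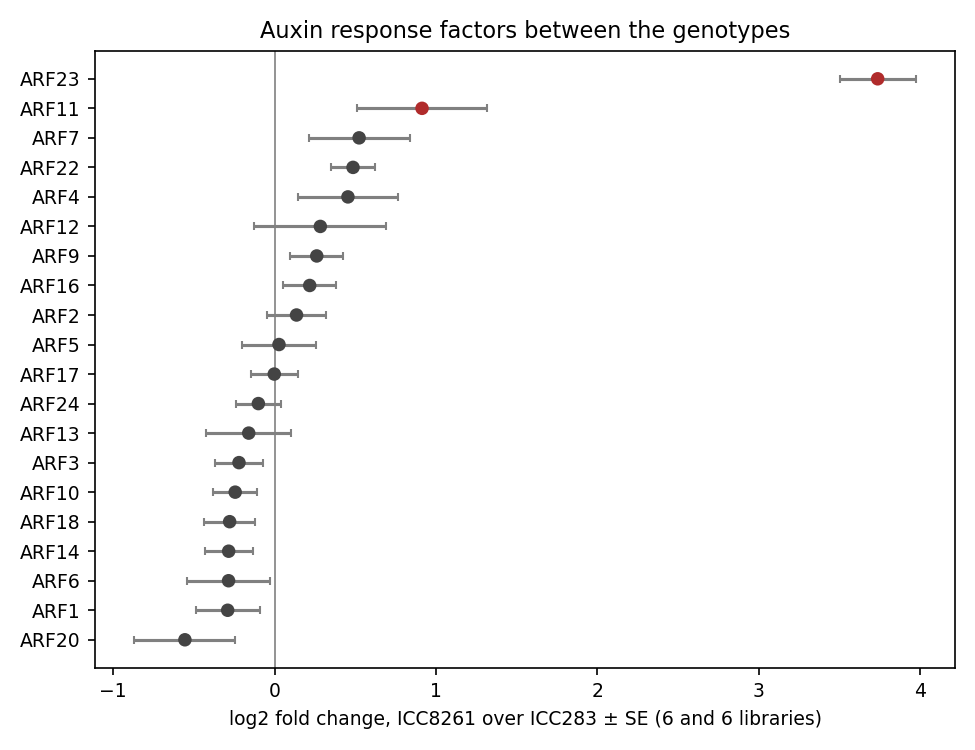
edgeR log2 fold change ± SE of ICC8261 over ICC283 over 6 and 6 libraries for the 20 auxin response factors that passed the filter, ordered by value, with ARF23 and ARF11 in red. ARF23 stands at 3.74 and ARF11 at 0.91, and the remaining factors lie between -0.56 and 0.52.

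Within single treatments, ARF20 was lower in ICC8261 in the undisputed libraries, by a log2 fold change of -0.93 ± 0.19 in well-watered plants (edgeR adjusted p = 0.0071) and of -0.87 ± 0.18 under drought (adjusted p = 0.012). ARF7 was higher in well-watered ICC8261 (1.26 ± 0.35, adjusted p = 0.028). Under drought ARF6 (-0.61 ± 0.14) and ARF3 (-0.56 ± 0.16) were lower and ARF4 (0.74 ± 0.20) was higher. These are 1 higher and 1 lower of 18 in well-watered plants, beside 11.3% and 15.3% of all genes, and 1 higher and 3 lower under drought, beside 10.9% and 8.04%. With so few members, these counts are not set apart from the background. Under drought ARF3 and ARF4 were not called by DESeq2 (adjusted p = 0.053 and 0.10), with the replicate block (edgeR adjusted p = 0.056 and 0.076), or without any 1 of 5 of the 8 libraries. ARF20 and ARF7 in well-watered plants, and ARF20 and ARF6 under drought, also lost the call in some fits with a single library left out. With the tables' treatments only ARF6 was called, under drought, and with the count files' treatments 0 of 18 were called in either comparison, with 0 and 2 at an unadjusted p under 0.05.

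Some other factors of the family passed the drought test by edgeR. In ICC283 3 of 18 rose (ARF1, ARF20 and ARF3) and 3 fell, against 17.1% and 21.1% of all genes. In ICC8261 4 of 18 fell and none rose, against 6.37% and 9.09%. ARF1 had the largest rise, 0.75 ± 0.16 (adjusted p = 0.0060). ARF12, ARF13 and ARF4 fell in both genotypes. For ARF12 the log2 fold change was -1.28 ± 0.33 in ICC283 and -1.40 ± 0.31 in ICC8261, and for ARF13 it was -0.97 ± 0.17 and -0.98 ± 0.17. These 3 calls were also made in each genotype with the tables' treatments, and with the count files' treatments none was made. Some calls depended on single libraries: ARF12, ARF20 and ARF3 in ICC283, and ARF12 and ARF4 in ICC8261, lost theirs in some fits with a library left out. In ICC283 ARF20 was not called by DESeq2. The median drought value of the 18 was -0.15 in ICC283 and -0.23 in ICC8261, beside -0.034 and -0.0073 over all genes.

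The named gene whose pattern over the 12 libraries was most like that of ARF23 was FTA2, of the FLOWERING LOCUS T family of flowering signals, with a Pearson correlation of log2 CPM of 0.99. FTA2 had 0 to 2 counts in the ICC283 libraries and 174 to 236 in the ICC8261 libraries. Next came MAPK8, a MAP kinase symbol (0.93), CHS, the symbol of chalcone synthase, which makes the first flavonoid of its pathway (0.93), the glycosyltransferase UGT78G2 (0.88) and a gene with the symbol 288 (0.81). With ARF23 in 2 separate clusters of libraries, these correlations describe a shared step between the genotypes, except for gene 288. Its genotypes overlapped, with up to 12.4 CPM in ICC283 and down to 11.8 CPM in ICC8261. Its correlation with ARF23 was 0.43 inside ICC283 and 0.80 inside ICC8261. Within the genotypes FTA2 had 0.59 in ICC283 and 0.41 in ICC8261, and MAPK8 had 0.27 and -0.93. The FTA2 value in ICC283 rests on 0 to 2 counts per library and says nothing about likeness. CHS was at 16.6 CPM in ICC283 and 46.7 CPM in ICC8261.

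The pattern of ARF11 was most like that of ARF7, another auxin response factor, and here the likeness held inside each genotype. The correlation was 0.95 over 12 libraries, 0.94 in ICC283 and 0.93 in ICC8261. ARF7 ranged from 4.52 to 22.3 CPM, lowest in ICC283 drought library 1, where ARF11 was lowest too, and highest in ICC8261 well-watered library 2. MAPK14 (0.91), MAPK16 (0.84), ARF16 (0.83) and UGT73K2 (0.83) followed. The drought values of ARF7 had the same signs as those of ARF11 and likewise passed no test, at -0.30 ± 0.37 in ICC283 (edgeR adjusted p = 0.55) and -0.97 ± 0.34 in ICC8261 (adjusted p = 0.087). Within the family ARF12 (0.76) and ARF2 (0.72) also varied with ARF11 and ARF20 varied against it (-0.73). Read depth and the disputed treatments are shared by all these points. In every group as filed, ARF11 and ARF7 were both lowest in the library numbered 1. ARF11 was at 2.06 and 2.01 CPM there in ICC283 (well-watered, drought) and at 4.75 and 3.48 CPM in ICC8261. ARF7 was at 6.27 and 4.52 CPM in ICC283 and at 9.84 and 7.81 CPM in ICC8261. Whether the likeness follows the replicate numbers was not tested.

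**Figure D4:**
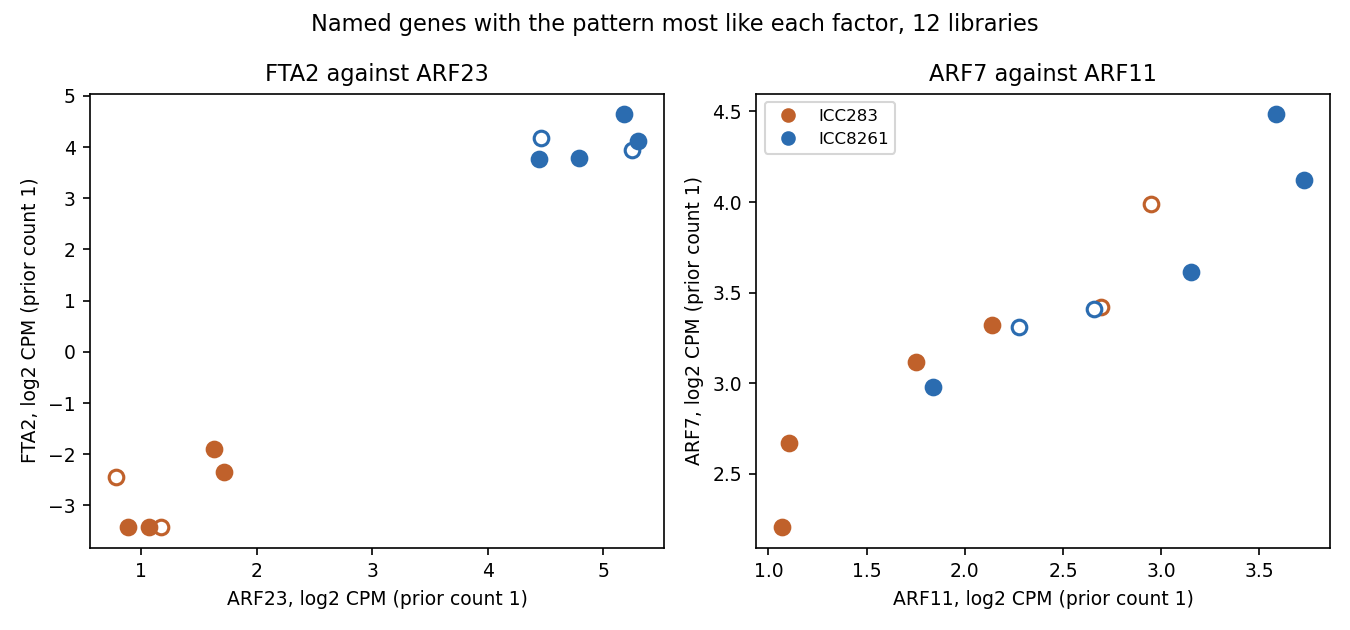
log2 CPM of FTA2 against ARF23 (left) and of ARF7 against ARF11 (right), 1 point per library, with ICC283 in orange and ICC8261 in blue and the 4 libraries of disputed treatment open. FTA2 and ARF23 form 2 separate clusters by genotype (correlation 0.99 over both), while ARF7 and ARF11 follow 1 line through both genotypes (0.95).

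The genes next to ARF23 had smaller differences between the genotypes than ARF23 itself. Neighbours were taken from the order of genes in a RefSeq assembly that may not be the one the reads were counted on. Of the nearest 3 on each side that are in the count files, 5 of 6 passed the filter, and their log2 fold changes of ICC8261 over ICC283 over all libraries lay between -0.24 and 0.67. None of these 5 passed the edgeR test (lowest adjusted p = 0.34), and with 4.5% of all genes called that is near the background. The nearest, LOC101505181 and LOC101505836, were at -0.23 ± 0.21 and -0.24 ± 0.36. Around ARF11 all 6 neighbours passed the filter and lay between -0.27 and 0.69, and none passed (lowest adjusted p = 0.28). In well-watered plants of the undisputed libraries LOC101499990, on one side of ARF23, was higher in ICC8261 (1.92 ± 0.53, edgeR adjusted p = 0.028), as was LOC101508671, on one side of ARF11 (2.29 ± 0.42, adjusted p = 0.0049). Neither was called under drought, where 2 other neighbours of ARF11, LOC101508355 (-0.62 ± 0.16, adjusted p = 0.027) and LOC101510269 (-0.62 ± 0.13, adjusted p = 0.012), were lower in ICC8261. Of all genes, 11.3% were called higher in well-watered plants and 8.04% lower under drought. With so few neighbours and 2 libraries per group, these calls are not set apart from the background. The neighbours were not followed under the alternatives.

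**Figure D5:**
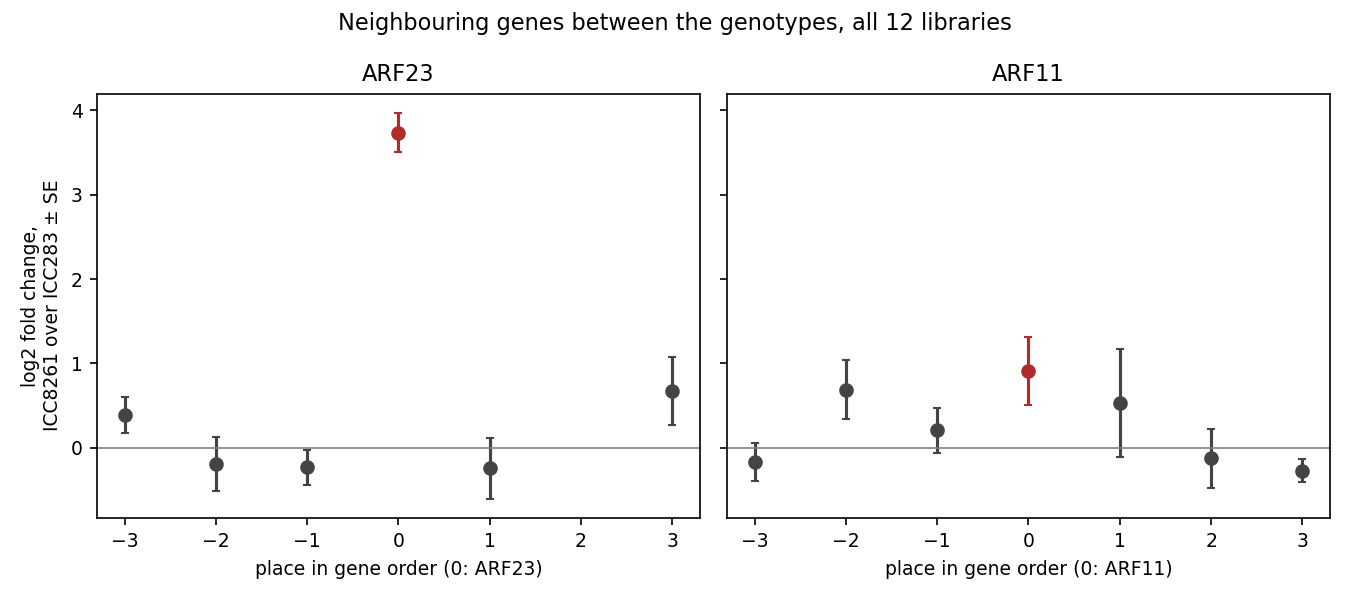
edgeR log2 fold change ± SE of ICC8261 over ICC283 over all 12 libraries for ARF23 (left, red) and ARF11 (right, red) and for the nearest 3 genes on each side in the order of the reference assembly. The neighbours of ARF23 lie between -0.24 and 0.67 beside its own 3.74; 1 neighbour with too few counts has no point.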

How the data were processed

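Leaf RNA of 12 libraries was sequenced as paired reads of 150 bases, per the labels' protocols, and grouped by the titles. The labels do not state that each library is a separate plant or pot, so a p-value covers only the spread among libraries, which may be technical. The authors deposited whole-number counts per gene; TopHat2 2.1.1 and HTSeq are among the tools in the submitters' processing notes, with Trimmomatic, Cufflinks 2.0.2, edgeR and DESeq2. The genome build and whether counting used strand: not given in the sources used here. Alignments that were not unique made up 44.1% to 53.5% of all lines counted; whether near-identical copies cost ARF23 or ARF11 reads was not tested. HTSeq summary lines were left out of library sizes. The authors' deposited tables hold normalized counts (a signal per library), log2 fold changes, a Wald score, p-values and adjusted p-values. Divided by their smallest step, the normalized columns gave whole reads (tolerance 0.02) equal to exactly 1 count file at every shared gene, which showed the exchanged treatments.

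The test on counts was edgeR 4.0.16 under R 4.3.3 (filterByExpr, minimum count 10 and total 15; TMM; robust glmQLFit; two-sided glmQLFTest; Benjamini-Hochberg over all genes tested; calls at 0.05), with 4 group means over the 8 undisputed libraries, and with genotype alone over all 12. The SE is the absolute log2 fold change over the square root of F. The script was tested on simulated data. Alternatives were the other treatment labels, upper-quartile scaling, DESeq2 1.42.0, no filter, each library left out, a replicate block and, chosen after seeing the data, leaving out a pair of libraries. Members, lists and tests were chosen with earlier results of these data known.

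The name table (Cicar.CDCFrontier_v2.0) matched 24445 of 27234 features (89.8%) but gives symbols other than LOC numbers to few: 390 had one. Of 8 auxin lists set by symbol, 7 (Aux/IAA, receptors, transport, GH3, SAUR, synthesis, co-repressors) had no match and were not used. Named besides ARF23 and ARF11 are family members called (at most 6 per comparison), the 5 symbols with the highest correlation (log2 CPM, prior count 1) and the nearest 3 genes per side. Protein sequences were not used here, so likeness of proteins and the planned check of protein length were left out.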

Additional observations from a re-analysis of the deposited data

Results flagged for a closer look

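The drought effects of 2 other factors of the family differed between the genotypes by the edgeR test of the difference itself, ICC8261 minus ICC283, in the 8 undisputed libraries. For ARF6 the difference was -0.86 ± 0.19 (log2, adjusted p = 0.021), from drought values of -1.22 ± 0.14 in ICC8261 and -0.35 ± 0.13 in ICC283. For ARF3 it was -0.86 ± 0.22 (adjusted p = 0.033), from -0.31 ± 0.15 and 0.56 ± 0.16. With the tables' treatments the adjusted p was 0.091 and 0.14, and with the count files' treatments it was 1 for both. ARF6 lost the call without any 1 of 5 of the 8 libraries, and ARF3 without any 1 of 6. No library of ARF23 or ARF11 stood apart from the other 5 of its genotype by Dixon's test.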

How the results depend on the processing

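The difference of ARF23 between the genotypes kept its direction under every alternative run (log2 3.64 to 3.84 over all libraries, 2.90 to 3.77 in well-watered plants and 3.63 to 4.21 under drought). In ICC8261, its drought value passed the threshold with the tables' treatments (0.68) and with no filter (0.64), and ranged from 0.46 to 0.79 with single libraries left out. In ICC283 its drought value was -0.091 with the count files' treatments and -0.35 to 0.53 with single libraries left out. For ARF11 the drought value in ICC283 was 0.025 with the count files' treatments and -0.70 to 0.36 with single libraries left out, and in ICC8261 it ranged from -1.84 to -0.49. Its genotype difference was 1.22 (count files' treatments) and 1.15 (tables' treatments) in well-watered plants, 1.503 to 2.56 with single libraries left out, and 0.38 to 1.71 under drought. Leaving out the ICC283 well-watered pair gave 3.78 for ARF23, 0.73 for ARF11 and 564 genes called over the remaining libraries.

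With the count files' treatments edgeR called 0 genes for drought in ICC283, 0 in ICC8261 and 0 for the difference (1841, 386 and 634 at an unadjusted p under 0.05; DESeq2 was not run on these labels), 98 between genotypes in well-watered plants and 113 under drought. With the tables' treatments it called 479 for the difference, 2359 and 1913 between genotypes, and 2813 over all libraries with treatment as a term. DESeq2 called 1659 over all libraries. With single libraries left out, counts ranged from 3961 to 7539 (drought in ICC283), 455 to 3294 (drought in ICC8261), 540 to 2307 (difference), 1434 to 5594 (genotypes, well-watered), 862 to 3793 (genotypes, drought) and 389 to 1648 (genotypes, all libraries). Upper-quartile scaling moved the share of higher calls between genotypes in well-watered plants from 42.4% to 55.9% and the median of all genes from -0.029 to 0.082. The cause of these changes was not tested. At 15 to 37 counts per undisputed ICC283 library, depth limits both genes there.

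The replicate numbers did not meet the criterion for pairing, a correlation over 0.1 of the deviations of every same-numbered pair. Between treatments, these correlations were 0.16 in ICC283 and -0.16 in ICC8261 in the undisputed libraries, and -0.61 to 0.73 over all 12 as filed (0.70 and 0.73 for ICC8261 numbers 1 and 2). Between genotypes the correlations were 0.12 and 0.16 for the 2 undisputed pairs. They were -0.60 to 0.55 over the 6 pairs as filed, of which 2 correlated best with their own number. With the tables' treatments they were -0.15 to 0.31. With so few pairs, a pairing by number is not excluded. A replicate block gave 0.97 ± 0.22 (SE) for ARF11 between the genotypes over all libraries, beside 0.91 ± 0.40 without it. The undisputed libraries of the groups do not carry the same numbers. There the block gave ARF11 a drought value of -0.66 ± 0.28 in ICC8261, beside -1.0 ± 0.44 without it. Its genotype value in well-watered plants was 1.42 ± 0.30 with the block, beside 1.95 ± 0.48 without it. ARF11 was higher in ICC8261 in 6 of 6 same-numbered pairs as filed, some mixed in treatment by the tables. This is no test: the contrast may have chosen the gene, and the numbers missed the criterion. The share of all genes so ordered was not counted. With the block, 1800 genes were called for drought in ICC8261 and 3182 between genotypes in well-watered plants.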
